A study of Rattus norvegicus with 6 samples.

Results

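Tbx18, a T-box factor that patterns the sinus node and epicardium of the embryo, was expressed from an adenovirus in neonatal rat ventricular myocytes. In these cultures 9 of 10 genes of the cardiac thin filament were called lower than in GFP controls, against 23.5% of all genes tested. The 10 genes were Actc1, Acta1, Tnnt2, Tnnt1, Tnni1, Tnni3, Tnnc1, Tpm1, Tmod1 and Lmod2. They were chosen by symbol from the 17089 genes of the deposited table, with earlier results of these data known. The Tbx18 cultures received the adenovirus Ad-Tbx18-IRES-GFP and the GFP control cultures received Ad-GFP, both on the day the cells were isolated, so that GFP was carried by both vectors. All cells came from the ventricles of Sprague Dawley pups aged 1 to 3 days, grew on fibronectin in a medium based on M199 with 10% serum for 2 days and 2% from day 3, with harvest on day 4 after transduction. Each group had 3 libraries, called Tbx18 and GFP, and all 6 share the terms unpace and Control in the header of the deposited table, which the labels do not define. The labels do not give the share of cells that took up the virus, nor whether the replicates of a group came from different cell isolations. The p-values therefore cover the spread among these 6 libraries, and that spread may be technical.

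The thin filament is the actin strand of the sarcomere on which myosin heads pull. Tropomyosin lies along the strand and covers the myosin sites, and a troponin complex of a calcium sensor (troponin C), an inhibitor (troponin I) and a tropomyosin-binding subunit (troponin T) moves it aside when calcium rises. Tropomodulin and leiomodin act at the pointed end of the strand, the first as a cap and the second in elongation. In the rodent heart several of these proteins change form around birth: skeletal alpha-actin (Acta1) gives way to cardiac alpha-actin (Actc1), and slow skeletal troponin I (Tnni1) gives way to cardiac troponin I (Tnni3). For cardiac troponin T (Tnnt2) and tropomyosin (Tpm1) the developmental change is made by splicing within the gene, which gene counts do not show.

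Values are DESeq2-normalized counts, that is, reads per gene divided by a size factor of the library. They are not corrected for transcript length, so they were compared between libraries and not between genes. Recovered depths were 17074483 to 19800300 gene-assigned reads in Tbx18 and 17460507 to 18934232 in GFP. Tbx18 itself had 6004, 6236 and 5937 counts in the Tbx18 libraries and 312, 268 and 296 counts in the GFP libraries, so that every library matched its label. The species of the transgene is not given, and reads of the vector are not separable from those of the rat gene. Each of the 14 cardiomyocyte marker genes used to check the cell type (among them Myh6, Ryr2 and Actn2) was read in all libraries, and their summed level was 569235 to 587099.5 in Tbx18 and 1246296 to 1336121 in GFP.

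Of the 10 thin filament genes, all of which passed the minimum mean of 10 counts, 9 were lower and 0 higher in Tbx18 than in GFP at a limma adjusted p under 0.05. Over all 11230 genes tested, 23.5% were called lower and 22.5% higher. The median log2 fold change was -1.12 over the 10 genes and 0.01 over all genes tested. The groups did not overlap, with Tbx18 lower, for the same 9 genes, against 28.6% of all genes tested. Of the 9, 6 fell by at least 1 on the log2 scale, a size of fall reached by 4.22% of all genes tested. That count was 3 with equal recovered reads (2.23% of all genes) and 3 after quantile normalization (4.98%). No thin filament gene was higher at an unadjusted p under 0.05 in limma, and 0 were called higher and 9 lower by edgeR (23.3% of all genes higher, 23.1% lower), by DESeq2 (21.7% higher, 23.7% lower) and by limma with libraries scaled to equal recovered reads (42.5% higher, 12.0% lower). Together the 10 genes took 2.39%, 2.54% and 2.28% of the deposited counts in the Tbx18 libraries and 5.01%, 5.43% and 5.03% in the GFP libraries.

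**Figure D1:**
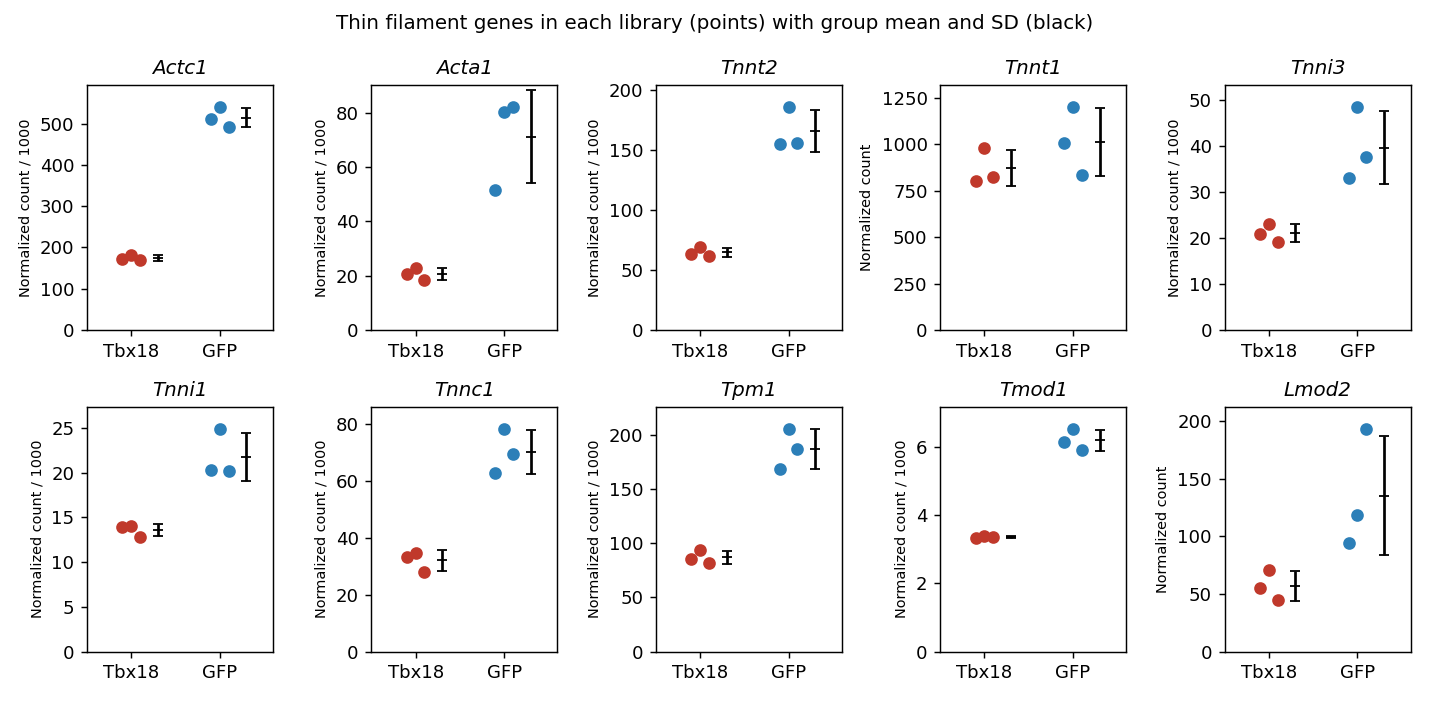
Normalized count of each of the 10 thin filament genes (vertical axes, from 0, divided by 1000 where marked) in the 3 Tbx18 and 3 GFP libraries (points, replicates 1 to 3 from left to right within a group), with the group mean and SD in black. The Tbx18 points lie below the GFP points in every panel except that of Tnnt1, where the groups overlap.

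Both striated muscle alpha-actins fell. Actc1, cardiac alpha-actin and the main actin of the adult heart, had 170804, 181433 and 169459 counts in Tbx18 and 511002, 539951 and 493102 counts in GFP. The libraries of each group lay close together and the groups were far apart. Its mean was 173899 ± 6559 in Tbx18 and 514685 ± 23641 in GFP (SD, n = 3 each), a 2.96-fold fall (log2 fold change -1.57, SE 0.15, limma adjusted p = 5.11e-05). Acta1, skeletal alpha-actin, had 20589, 22976 and 18542 counts in Tbx18 and 51358, 80224 and 82001 counts in GFP. GFP replicate 1 lay below the other two GFP libraries, yet above every Tbx18 library. The fall of Acta1 was 3.44-fold (log2 fold change -1.76, with SE 0.18 and limma adjusted p = 6.76e-05), the largest among the 10 genes except after quantile normalization, where Lmod2 fell by 1.54 and Acta1 by 1.35 on the log2 scale. Reads of these near-identical actins could have been split or dropped by the counting, so their levels are less certain than those of the other genes.

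The troponin subunits fell by different amounts. Tnnt2, cardiac troponin T, had 63047, 69233 and 61949 counts in Tbx18 and 155298, 185706 and 155904 counts in GFP, with no overlap (log2 fold change -1.35, SE 0.13, limma adjusted p = 5.13e-05). Tnnc1, the calcium-binding subunit shared by heart and slow skeletal muscle, had 33358, 34756 and 27969.5 counts in Tbx18 and 62775, 78132 and 69302 counts in GFP. It fell 2.19-fold (log2 fold change -1.13, with SE 0.13 and limma adjusted p = 0.000121), and its lowest GFP library was well above its highest Tbx18 library.

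The troponin I genes moved less than Tnnt2 and Tnnc1 in point estimate, a difference between genes that was not tested. Tnni3, the cardiac inhibitory subunit, had 20768, 23003 and 19095 counts in Tbx18 and 32904, 48376 and 37534 counts in GFP (log2 fold change -0.90, SE 0.14, limma adjusted p = 0.000821). Tnni1, the fetal form, had 13948, 13994 and 12827 counts in Tbx18 and 20244, 24885 and 20216 counts in GFP (log2 fold change -0.67, SE 0.11, limma adjusted p = 0.00071). For each of them the groups were apart, with GFP replicate 2 the highest library. Tnnt1, slow skeletal troponin T, was the gene that did not pass the test. It had 804, 983 and 827 counts in Tbx18 and 1009.5, 1200.4 and 833 counts in GFP, and GFP replicate 3 lay within the Tbx18 range (log2 fold change -0.21, SE 0.14, limma adjusted p = 0.242). With libraries scaled to equal recovered reads its log2 fold change was 0.054.

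Tropomyosin and the pointed-end genes fell as well. Tpm1, alpha-tropomyosin, the main tropomyosin of rodent ventricle, had 85301, 94021 and 81964 counts in Tbx18 and 168218, 205558 and 187426 counts in GFP, a 2.15-fold fall (log2 fold change -1.10, SE 0.14, limma adjusted p = 0.000192). Tpm1 is also used by smooth muscle and non-muscle cells, and its splice forms are summed here. Tmod1, the tropomodulin that caps the pointed end in striated muscle, had 3335, 3396 and 3356 counts in Tbx18 and 6162, 6533 and 5903 counts in GFP. Its Tbx18 libraries were almost equal, with an SD of 30.8 counts, and its fall of 0.88 on the log2 scale carried the smallest error of the 10 genes (SE 0.08, limma adjusted p = 2.84e-05). Lmod2, cardiac leiomodin, was read at few counts for a gene known from heart muscle, and since the annotation used for counting is not given, whether the counts cover its whole transcript was not tested. They were 55.2, 70.7 and 44.8 in Tbx18 and 94.7, 119 and 193 in GFP. The groups did not overlap but the GFP libraries spread widely (log2 fold change -1.20, SE 0.28, limma adjusted p = 0.006).

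**Figure D2:**
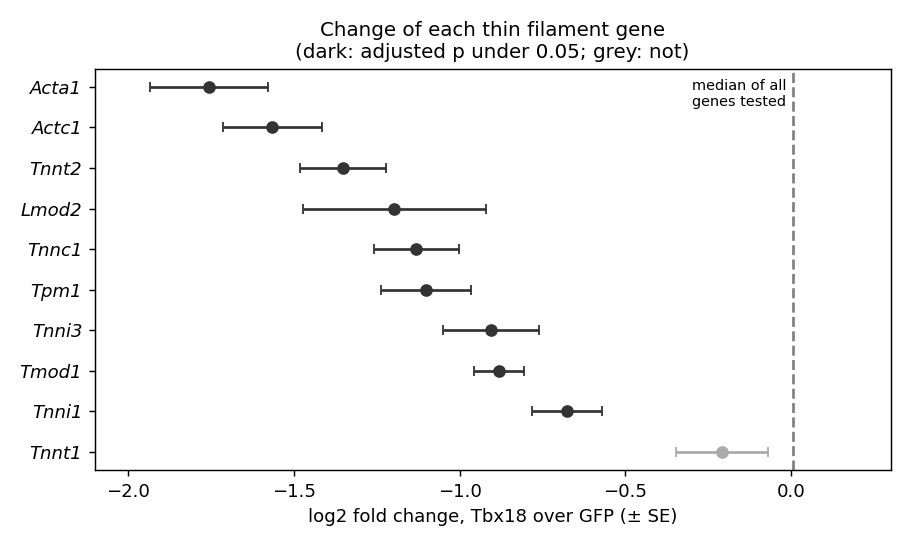
Log2 fold change of each thin filament gene, Tbx18 over GFP (horizontal axis; points with bars of 1 SE from limma), ordered from the largest fall of -1.76 for Acta1 at the top to -0.21 for Tnnt1 at the bottom. The dashed line is the median of all genes tested, 0.01, and Tnnt1, in grey, did not reach an adjusted p of 0.05.

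Within a group the genes tended to be high in the same library. Tbx18 replicate 2 held the highest value for 10 of the 10 genes, and Tbx18 replicate 3 the lowest for 8. Among the GFP libraries, replicate 2 was highest for 8 genes and replicate 1 lowest for 6. Acta1 and Lmod2 departed from this, with GFP replicate 3 the highest library. How often other genes ranked the libraries this way was not counted, so the order is not read as a trait of the thin filament. On the log2 scale the SD of a gene's libraries was 0.01 for Tmod1 to 0.32 for Lmod2 in Tbx18, and 0.07 for Actc1 to 0.52 for Lmod2 in GFP.

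Ratios of gene pairs, among them fetal to adult forms, were computed within each library, where the size factor cancels. Tnnt1 over Tnnt2 sets slow skeletal against cardiac troponin T, and Lmod2 over Tmod1 sets an elongation factor against a cap. All are ratios of counts without correction for transcript length, so their change between groups can be read but their absolute level cannot. Each of 6 ratios was tested with an exact two-sided permutation test over the 6 libraries, for which p = 0.1 is the smallest value possible with 3 against 3, so none could pass 0.05. The p-values adjusted over the 6 ratios were 0.2 where p was 0.1. Differences are Tbx18 minus GFP in the mean log2 ratio, with the SE over libraries.

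Acta1 over Actc1, the actin ratio that falls after birth, was 0.121, 0.127 and 0.109 in Tbx18 and 0.101, 0.149 and 0.166 in GFP. The Tbx18 values lay inside the GFP range, and the difference of -0.19 (SE 0.23) was smaller than its error (exact permutation p = 0.5, adjusted p = 0.5). Without GFP replicate 1, the GFP library with the lowest ratio, the difference was -0.41 and the groups no longer overlapped. With all libraries, Acta1 made up 10.6 ± 0.699% of the reads of the pair in Tbx18 and 12.1 ± 2.66% in GFP (SD, n = 3 each).

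Tnni1 over Tnni3, the troponin I ratio of the same kind, was 0.672, 0.608 and 0.672 in Tbx18 and 0.615, 0.514 and 0.539 in GFP. It was 1.17-fold higher in Tbx18 (difference 0.23, SE 0.09), with Tbx18 replicate 2 just below GFP replicate 1 (exact permutation p = 0.2, adjusted p = 0.3). In shares of the pair's reads, Tnni1 held 39.4 ± 1.36% in Tbx18 and 35.7 ± 2.14% in GFP (SD, n = 3 each).

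Tnnt1 over Tnnt2 was 0.0127, 0.0142 and 0.0133 in Tbx18 and 0.0065, 0.00646 and 0.00534 in GFP. The groups were separate and the ratio was 2.21-fold higher in Tbx18 (difference 1.14, SE 0.10, exact permutation p = 0.1). The counts of Tnnt2 were lower and those of Tnnt1 were not called, so the ratio differed mainly through its denominator. Lmod2 over Tmod1 was 0.0166, 0.0208 and 0.0133 in Tbx18 and 0.0154, 0.0181 and 0.0327 in GFP, with overlapping groups (difference -0.33, SE 0.38, exact permutation p = 0.5), and rests on the same low Lmod2 counts.

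Acta2, smooth muscle alpha-actin, is the first actin of the embryonic heart and is also made by smooth muscle cells and activated fibroblasts. Its counts were 72052, 63713 and 68412 in Tbx18 and 69553, 62437 and 38392 in GFP, and they overlapped (log2 fold change 0.30, limma adjusted p = 0.24). It was called higher without GFP replicate 1, where the log2 fold change was 0.47 (limma adjusted p = 0.0461), after quantile normalization and with equal recovered reads; the adjusted p lay between 0.0036 and 0.805 over all settings. Acta2 over Actc1 was 0.422, 0.351 and 0.404 in Tbx18 and 0.136, 0.116 and 0.0779 in GFP, 3.65-fold higher in Tbx18 (difference 1.87, SE 0.25, exact permutation p = 0.1). The log2 fold change of Actc1 was -1.57 beside 0.30 for Acta2, so this ratio differed mainly through its denominator.

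The thick filament gave a comparator. Myh7 over Myh6, beta over alpha myosin heavy chain and the fetal to adult pair of the rodent ventricle, was 0.17, 0.201 and 0.172 in Tbx18 and 0.774, 0.949 and 0.719 in GFP (difference -2.16, SE 0.14, exact permutation p = 0.1). The fetal to adult ratio of myosin was therefore lower in Tbx18, that of troponin I was higher in point estimate, and that of alpha-actin could not be told from no difference at this spread. Whether these ratios differ from one another was not tested.

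**Figure D3:**
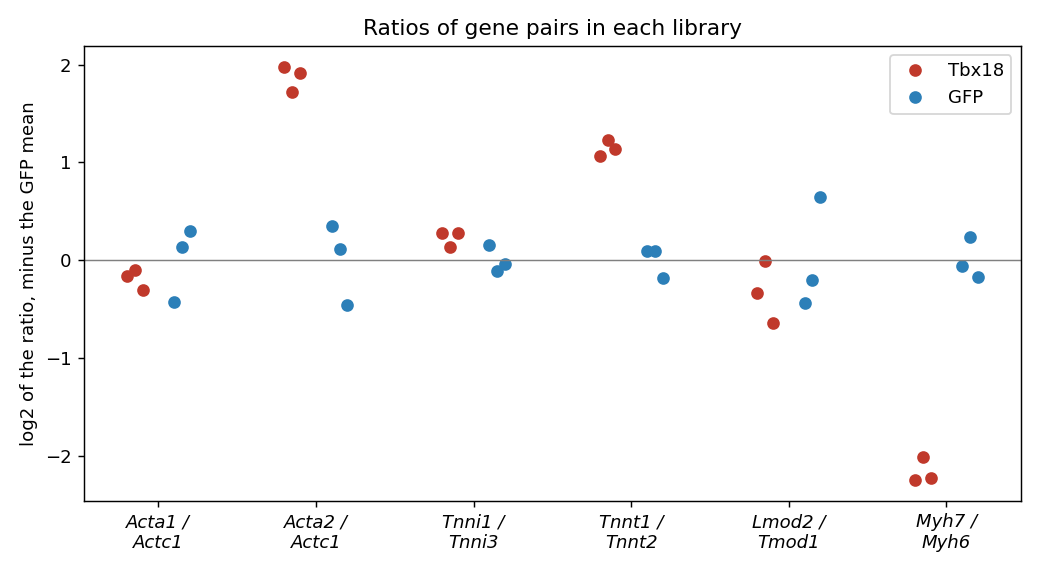
Log2 ratio of each gene pair in each library, minus the mean of the 3 GFP libraries for that pair (vertical axis); points are libraries, Tbx18 left of GFP for each pair. The groups are apart for Acta2 over Actc1 (1.87 higher in Tbx18), Tnnt1 over Tnnt2 (1.14 higher) and Myh7 over Myh6 (-2.16), and overlap for the other 3 pairs.

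The start regions of the alpha-actin and troponin I pairs are shown because the fetal to adult ratios rest on these 4 genes. They run from 250 bases before to 50 bases after the annotated start, 5′ to 3′ on the gene's strand, from RefSeq on build GRCr8: Acta1 at chr19:68784145-68784444 (minus strand), Actc1 at chr3:121271778-121272077 (minus), Tnni1 at chr13:49781279-49781578 (plus) and Tnni3 at chr1:78342321-78342620 (plus). The build used for the counts is not given in the sources used here. Capitals mark matches to the CArG box, the sequence bound by serum response factor, and to GGTGTGA, a core of the sequence bound by T-box factors, on either strand.
Acta1: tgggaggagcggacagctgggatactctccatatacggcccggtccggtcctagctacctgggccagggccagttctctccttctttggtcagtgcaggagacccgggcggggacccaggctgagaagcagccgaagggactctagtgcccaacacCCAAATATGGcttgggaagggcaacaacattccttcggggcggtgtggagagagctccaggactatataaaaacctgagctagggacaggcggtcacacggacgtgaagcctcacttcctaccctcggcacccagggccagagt
Actc1: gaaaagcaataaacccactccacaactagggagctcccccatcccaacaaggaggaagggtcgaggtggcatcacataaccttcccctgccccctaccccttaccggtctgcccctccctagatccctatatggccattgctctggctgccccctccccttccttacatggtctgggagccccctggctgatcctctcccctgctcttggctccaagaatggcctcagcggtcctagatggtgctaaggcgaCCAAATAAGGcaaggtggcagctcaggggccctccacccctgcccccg
Tnni1: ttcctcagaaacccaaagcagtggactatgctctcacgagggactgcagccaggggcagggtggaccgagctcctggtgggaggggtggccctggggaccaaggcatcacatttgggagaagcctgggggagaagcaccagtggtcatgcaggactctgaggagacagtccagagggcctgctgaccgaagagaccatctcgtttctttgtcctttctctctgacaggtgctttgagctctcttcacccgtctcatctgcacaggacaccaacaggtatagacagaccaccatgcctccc
Tnni3: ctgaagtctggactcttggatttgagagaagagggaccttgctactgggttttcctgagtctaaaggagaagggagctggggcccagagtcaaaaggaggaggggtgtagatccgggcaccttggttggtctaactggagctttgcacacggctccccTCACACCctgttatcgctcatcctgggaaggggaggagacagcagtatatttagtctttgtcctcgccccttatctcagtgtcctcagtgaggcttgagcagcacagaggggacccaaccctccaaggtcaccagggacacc

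The CArG box was searched as CC and GG with only A or T between them, 10 bases in all, and near matches were not marked. A CArG box was present in Acta1 at -94 to -85 from the start and in Actc1 at 3 to 12, the 2 members with a match among the 9 that had an entry, which together had 10 start regions. Among all 33469 start regions of the same length, 1.64% held one. GGTGTGA was present in Tnni3 at -92 to -86 on the opposite strand, in Lmod2 at 33 to 39 on the opposite strand and in 1 of the 2 start regions of Tnnt2 at -186 to -180, against 3.83% of all start regions. CATTCCT, the M-CAT element bound by TEAD factors, was present in Acta1, Tpm1 and Tnnt2, against 5.17% of all start regions, and it did not overlap the CArG box of Acta1. Tnni1 held none of these letters in this window. The motifs were searched on both strands, and a match describes the letters alone.

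The other thin filament list of 30 symbols, 26 of them tested, also held cytoplasmic actins, actin turnover and capping factors, and scaffold proteins. Its genes moved both ways, with 8 called higher and 7 lower and a median log2 fold change of 0.07. These are 30.8% and 26.9% of the list, near the 22.5% higher and 23.5% lower of all genes tested, and with equal recovered reads 12 were higher and 6 lower. Xirp2, an actin-binding protein of the intercalated disc, had 6813, 8000.1 and 6737 counts in Tbx18 and 19700.2, 17574 and 21066 counts in GFP (log2 fold change -1.44, limma adjusted p = 1.25e-05). Fhod3, a formin needed for sarcomere assembly, fell 2.13-fold to 2182 ± 157 in Tbx18, against 4648 ± 317 in GFP (SD, n = 3 each). Nrap, a scaffold of forming myofibrils, fell 2.06-fold to 4276 ± 149 in Tbx18, against 8826 ± 1492 in GFP. These 3 genes were chosen for the size of their change. For each of them the lowest GFP library was above the highest Tbx18 library, a separation found for 28.6% of all genes tested.

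Among the genes called higher, chosen for mention after their values were seen, were the cytoplasmic actins and the tropomyosins best known from non-muscle and slow muscle cells. Actb, beta-actin, had 62312, 64525 and 66377 counts in Tbx18 and 38817, 38764 and 35718 counts in GFP (log2 fold change 0.77, limma adjusted p = 0.00026). Actg1, gamma-actin, rose 1.55-fold, Tpm3 1.38-fold and Tpm4 1.29-fold. Lmod1, the leiomodin of smooth muscle, was 864 ± 109.5 in Tbx18 and 353 ± 106 in GFP (log2 fold change 1.33, limma adjusted p = 0.000745). Tpm2, beta-tropomyosin, was 16007 ± 502 in Tbx18 and 16615 ± 2693 in GFP and did not pass the test (log2 fold change -0.04, limma adjusted p = 0.792); the sign of this difference turned positive after quantile normalization and with scaling to the upper quartile or to equal reads.

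The fast skeletal troponins were read at low counts. Tnnc2, fast skeletal troponin C, had 101, 84 and 71.1 counts in Tbx18 and 9.57, 1.23 and 4.6 counts in GFP. Every Tbx18 library was above every GFP library (log2 fold change 4.07, with SE 0.50 and limma adjusted p = 0.000199), and the log2 fold change was 3.47 without GFP replicate 2. Tnnt3, fast skeletal troponin T, had 27.6, 15.4 and 37.7 counts in Tbx18 and 18.1, 16.1 and 12.7 counts in GFP and did not pass the test (limma adjusted p = 0.157), except without Tbx18 replicate 2, where the log2 fold change was 1.02 (limma adjusted p = 0.0498). Tnni2, fast skeletal troponin I, was under 3 counts in each library and was not tested. Of 15 skeletal muscle markers, 6 were tested, with 4 higher and 2 lower and a median log2 fold change of 1.76. These are 66.7% and 33.3% of the tested markers, against 22.5% higher and 23.5% lower of all genes tested. Myf5, Pax7 and Myh8 were at 0 in all libraries. The summed level of the list was 12133 to 15213 in Tbx18 and 15422 to 19088 in GFP. Most of that sum was 1 gene, Casq1, a calsequestrin that was lower, at 13346 ± 1543 in Tbx18 and 17352 ± 1935 in GFP (SD, n = 3 each).

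Markers of the cell types a ventricular culture holds were counted beside all genes tested, of which 22.5% were called higher and 23.5% lower. Of the 14 cardiomyocyte markers, none of them a thin filament gene, 12 were lower and 2, Myh6 and Myl2, did not pass the test. Their median log2 fold change was -1.10 beside -1.12 for the thin filament genes. The range was wide in each, -2.57 to -0.41 for the markers and -1.76 to -0.21 for the thin filament genes. Of 8 fibroblast markers 7 were higher (median 1.26), with a summed level of 514008 to 597956 in Tbx18 and 239314 to 278871 in GFP. Smooth muscle and pericyte markers were higher for 6 of 8 and lower for 1, with sums of 60696 to 64564 in Tbx18 and 42889 to 49624 in GFP. For endothelial markers 5 of 8 were higher and 1 lower, with sums of 2169.6 to 2246 in Tbx18 and 1488 to 2271 in GFP. For leukocyte markers 2 of 6 were higher, with sums of 1102 to 1462 in Tbx18 and 940.4 to 1615 in GFP. That is 33.3% of the leukocyte list, near the share of all genes. The endothelial and leukocyte sums overlapped between the groups. No marker of these 5 lists was at 0 in all libraries. In these bulk libraries fewer myocytes and less thin filament RNA per myocyte cannot be told apart, and the part of the marker shifts in the thin filament values was not tested.

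**Figure D4:**
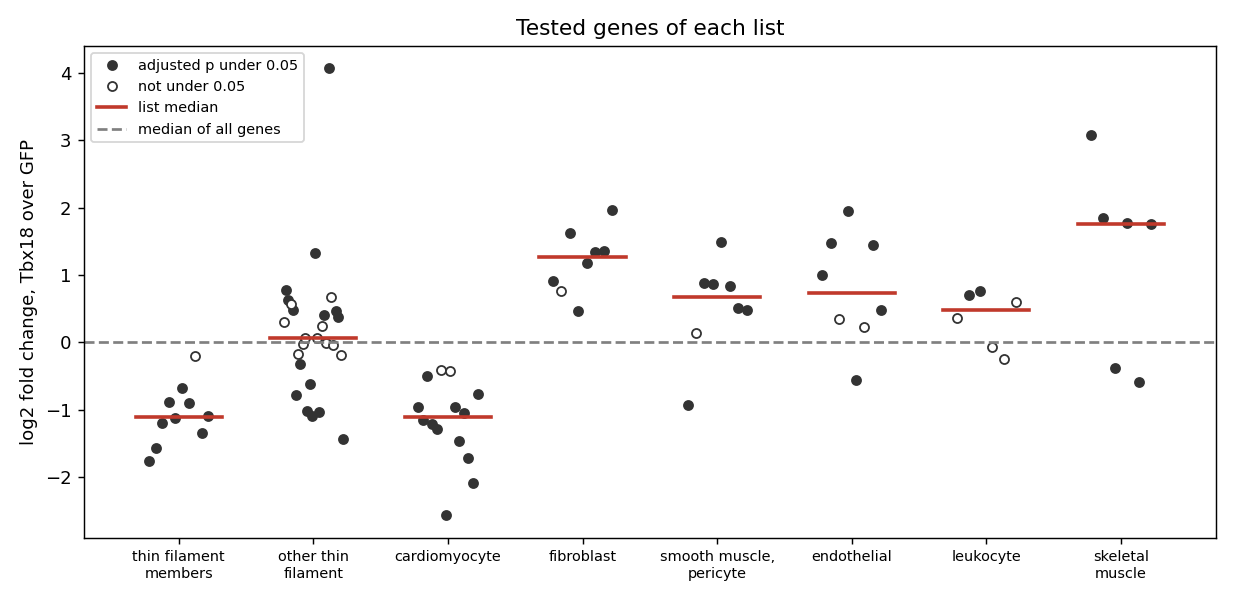
Log2 fold change, Tbx18 over GFP (vertical axis), of each tested gene (points; filled where the limma adjusted p was under 0.05) in the thin filament members, the other thin filament genes and 6 marker lists, with each list's median as a red bar and the median of all genes as a dashed line. The median of the thin filament members (-1.12) lies level with that of the cardiomyocyte markers (-1.10), and the fibroblast markers lie above 0 (median 1.26).

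Transcription factors and splicing regulators were counted as lists, and whether they act on the thin filament transcripts in these cultures was not tested. Of 12 tested transcription factors of cardiac and muscle genes, 6 were lower and 6 did not pass the test, with a median log2 fold change of -0.34. The 6 lower are 50% of the list, against 23.5% of all genes tested. Under some settings Mef2a and Gata4 lost their call, and genes such as Srf and Tead1 gained one. Srf and Tead1 were not among the lower genes, with positive limma log2 fold changes of 0.14 and 0.25. Of 11 splicing regulators of cardiac transcripts, 6 were lower and 2 higher (median -0.28), which are 54.5% and 18.2% of the list, against 23.5% lower and 22.5% higher over all genes tested. Here Celf2, Mbnl2 and Qk lost their call under some settings, and Celf1 and Mbnl1 gained one. The limma log2 fold change was -0.27 for Celf1 and 0.14 for Mbnl1.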

How the data were processed

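RNA was read as 101 bp pairs from 6 stranded libraries made with 100 ng of total RNA, per the labels' protocols. Tools listed in the submitters' processing notes, with no role stated, are STAR 2.4.0g1, DESeq2 1.10.1, HTSeq and bcl2fastq. The build, annotation and strand setting of the counting were not given in the sources used here. The deposited signal is, per the name of the deposited table, DESeq2-normalized counts: the authors divided each library's gene reads by a size factor. In each library 100% of values were whole multiples of 1 step (tolerance 0.01), which gave back whole reads for edgeR and DESeq2.

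Groups were compared on log2(normalized count + 1) by limma 3.58.1 (R 4.3.3, mean-variance trend on) for genes with a mean of at least 10. Calls are Benjamini-Hochberg adjusted p under 0.05 over all 11230 genes tested. Folds of single genes are ratios of group means, and log2 fold changes are on the log2(count + 1) scale. Folds of gene-pair ratios are the antilog of the difference in mean log2 ratio. Alternatives were other scalings, pseudocounts and filters, limma without trend, edgeR 4.0.16, DESeq2 1.42.0, a replicate block, a fold minimum and leaving out each library. The fits were tested on simulated counts.

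The thin filament genes and the lists were chosen with earlier results of these data known. Named were all 10 members, Tbx18, Acta2, Tpm2, Tnnt3, Tnni2, Tnnc2, the 4 further called genes of the other thin filament list with the largest change, and Myh6 and Myh7; Actb, Actg1, Tpm3 and Tpm4 were chosen after their values were seen. Older symbols were matched through RefSeq synonyms (Qk for Qki, Emr1 for Adgre1). Neb, Lmod3, Xirp1, Mkl1, Mkl2, Mef2c and Ttn were listed and not analysed here.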

Additional observations from a re-analysis of the deposited data

How the results depend on the processing

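The 9 falls held, with 0 genes higher, under each scaling, pseudocount and filter, in limma without trend, edgeR and DESeq2, with the replicate block and with each library left out. With a log2 change of at least 1 also required, 6 were lower, or 3 with equal recovered reads, 3 after quantile normalization and 5 to 7 with 1 library left out, and the other thin filament list had 2 higher and 4 lower. Without that minimum, the other list had 12 higher and 6 lower with equal recovered reads and 11 and 6 after quantile normalization. Equal recovered reads moved the median of all genes to 0.27, with 42.5% called higher and 12.0% lower; the members' median was then -0.85, and -0.67 after quantile normalization, where the cause was not tested. Tnnt1 was 0.054 with equal recovered reads, and Tpm2 was 0.22 there, 0.24 after quantile normalization, 0.029 with upper-quartile scaling and, with 1 library left out, -0.14 to 0.084 (without GFP replicate 2).

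With 1 library left out, the members' median ran from -1.19 to -1.01, the other list had 8 to 9 higher and 6 to 8 lower, and the log2 ratio differences ran from -0.41 to -0.04 for Acta1 over Actc1, 1.64 to 2.04 for Acta2 over Actc1, 0.17 to 0.30 for Tnni1 over Tnni3, 1.05 to 1.19 for Tnnt1 over Tnnt2, -0.55 to -0.01 for Lmod2 over Tmod1 and -2.25 to -2.05 for Myh7 over Myh6. Same-numbered libraries had correlations of their deviations from the group means of -0.0047, 0.15 and 0.016, so the replicate numbers are not taken as pairs; with the replicate block 9 members were lower, 0 higher, and the other list had 9 higher and 7 lower. Lmod2 and the fast skeletal troponins are limited by few counts.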
